A study of Mus musculus with 2 samples.

Results

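T cells without a Foxp3 transcript were described among cells sorted from mouse colorectal polyps for the myeloid surface markers CD11b and CD11c. They were chosen by their own transcripts. A cell barcode was kept if between 200 and 4000 genes were detected in it and if mitochondrial transcripts took no more than 10% of its UMIs (unique molecular identifiers, 1 per captured RNA molecule). It was taken as a T cell if at least 2 of the 5 genes Cd3d, Cd3e, Cd3g, Trac and Trbc2 were detected, if S100a8 and S100a9 together had fewer than 80 and C1qa, C1qb and C1qc together fewer than 20 UMIs per 10,000, and then as a member if it had 0 Foxp3 UMIs. Of 6547 barcodes in both libraries 5849 were kept and 194 of those had at least 2 of the T cell genes. The neutrophil and macrophage limits removed 11, Foxp3 UMIs were present in 71, and 112 T cells without Foxp3 UMIs remained, 31 in the WT library and 81 in the KO library.

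The study examined how Dectin-1, the fungal and glucan receptor encoded by Clec7a, shapes the myeloid cells that infiltrate intestinal tumours. WT and Clec7a-/- (KO) mice on the C57BL6/J strain, 26 weeks old by the labels, all received azoxymethane (AOM) and 3 cycles of 1% dextran sulfate sodium (DSS) over 16 weeks, a treatment that gives colonic polyps. Sorted polyp cells of several mice of each genotype were pooled, and 1 single-cell 3′ library was made per genotype. With 1 library per genotype there was no test and no p-value: levels and shares are given with exact 95% intervals, which cover counting error only and say nothing of the spread between mice. Clec7a itself was not analysed here.

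T cells recognise antigen through a receptor of paired chains held in the membrane by the CD3 proteins. In most T cells the chains are alpha and beta (constant parts Trac, Trbc1 and Trbc2), and a minority carries gamma and delta chains (Tcrg-C genes and Trdc). The gamma-delta T cells of barrier tissues are a known early source of interleukin-17, while Foxp3 is the transcription factor that defines regulatory T cells, which restrain the other T cells. A T cell is not a usual constituent of a CD11b or CD11c sort.

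The WT library held 15869215 UMIs in 3467 barcodes (median 3246 per barcode) and the KO library 11808230 UMIs in 3080 barcodes (median 2696.5). The libraries shared 17 barcode sequences, 15 of them among kept barcodes and 0 among the members. The sample labels name both 10x Genomics and the SeekOne MM 3′ kit as the platform. Scrublet, a doublet caller, marked 0 barcodes in the WT library and 1 in the KO library, so it did not separate doublets here and none were removed.

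The members were shallower than the rest of their libraries. Their median was 2107 UMIs in the WT library, with a range of 617 to 11201, and 1525 UMIs in the KO library, with a range of 510 to 8461. The 24 WT and 47 KO T cells with Foxp3 UMIs (Foxp3+ T cells below) had medians of 2448 and 1920 UMIs, and the 3088 and 2567 kept barcodes with fewer than 2 of the 5 T cell genes (other barcodes below) had medians of 3410 and 2956. The median mitochondrial share of the members was 3.32% in the WT and 4.12% in the KO library.

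Values at the limits of the rule are given as a description. Exactly 2 of the 5 T cell genes were detected in 8 WT and 28 KO members, and all 5 in 4 and 3. Just outside, 94 WT and 110 KO kept barcodes had 1 of the 5 genes. The highest S100a8 and S100a9 level in a member was 51.0 UMIs per 10,000 in the WT and 72.1 in the KO library, and the lowest level that removed a T cell was 166 and 98.0. For the C1q genes the highest member value was 3.62 and 14.7, and the lowest value that removed a KO barcode was 70.2. The highest mitochondrial share of a member was 9.40% and 9.92%. Above that limit, 2 WT and 6 KO barcodes met the T cell, neutrophil, C1q and Foxp3 parts of the rule, and their lowest share was 11.7% and 10.1%.

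A count of 0 Foxp3 UMIs does not show that a cell lacked the transcript. Of the Foxp3+ T cells, 5 of 24 in the WT and 19 of 47 in the KO library were placed there by a single Foxp3 UMI. When Foxp3+ T cells were thinned at random to 1000 UMIs each, 5 of the 22 deep enough in the WT library (22.7%) and 16 of 41 in the KO library (39.0%) had no Foxp3 UMI left.

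T cell markers in the members followed the label. Trbc2 (chr6:41546730-41548352, plus strand, GRCm38), a constant part of the T cell receptor beta chain, was at 1692 CPM (UMIs per 1000000 UMIs of the cells) in the WT and 1592 in the KO members, against 1.93 and 4.77 in the other barcodes. These levels were fixed in part by the choice of members. Thy1, a T cell surface protein outside the rule, was at 953 CPM in the WT and 1021 in the KO members and at 2.50 and 3.68 in the other barcodes. Il2rb, the beta chain of the interleukin-2 receptor, was among the 20 most abundant genes of the members apart from mitochondrial and ribosomal protein genes, at 2207 and 2126 CPM against 8.37 and 16.4.

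Transcripts of the sorted surface markers were scarce in the members. Itgam (CD11b) had 1 UMI in the WT members and 11 in the KO members, and Itgax (CD11c) had 10 and 12. In the other barcodes an Itgam UMI was found in 59.7% of the WT and 37.4% of the KO barcodes and an Itgax UMI in 67.9% and 58.5%. Markers of B and plasma cells (2 UMIs in the WT and 1 in the KO members), epithelial cells (1 and 2) and mast cells (2 and 0) were near 0. The 11 monocyte and macrophage markers summed to 568 CPM in the WT and 1164 in the KO members, with Lyz2 as the most abundant gene and 5 and 1 of the 11 at 0, against 15901 and 15517 in the other barcodes. The 8 neutrophil markers summed to 1382 and 992 CPM, led by Il1r2, which activated T cells also express, against 8287 and 2683.

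Antigen presentation transcripts were the exception and sat in few barcodes. H2-Aa, H2-Ab1, H2-Eb1 and Cd74, which make up and chaperone MHC class II, had 859 UMIs in the WT and 564 in the KO members. Of these, 836 (97.3%) came from 4 of the 31 WT members and 515 (91.3%) from 6 of the 81 KO members, each with at least 50 such UMIs per 10,000, while 15 and 42 members had 0. The barcodes high in these transcripts were also deep, with medians of 5713.5 and 3848 UMIs. Whether they were T cells joined with an antigen-presenting cell in 1 barcode was not tested, and the ratios of genes and lists that depend most on them are also given without them.

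Members fell into parts by the receptor and co-receptor UMIs they carried. A UMI of Trdc or of a Tcrg-C gene was found in 12 of 31 WT members (38.7%, 95% Clopper-Pearson interval 21.9 to 57.8) and in 33 of 81 KO members (40.7%, 29.9 to 52.2). These 45 barcodes are called gamma-delta members, a name that rests on detected UMIs only. A Trdc UMI was found in 10 WT (32.3%) and 30 KO members (37.0%), and the remaining gamma-delta members had Tcrg-C UMIs alone. Whether those carried a gamma-delta receptor was not tested. After thinning to 1000 UMIs, which left out 5 WT and 19 KO members as too shallow, the share was 8 of 26 (30.8%) in the WT and 24 of 62 (38.7%) in the KO library. Of all members, 11 and 30 had at least 2 such UMIs. In Foxp3+ T cells the share was 0 of 24 and 0 of 47. With 3 counts as the limit of a count of 0, this allows up to 12.5% and 6.38%. The exact 95% intervals reach 14.2% and 7.55%. In the other barcodes the share was 0.227% and 0.545% at larger median depths. These include 94 WT and 110 KO barcodes with 1 of the 5 T cell genes, and without them the share was 4 of 2994 (0.134%) and 5 of 2457 (0.204%).

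A further 10 WT members (32.3%) and 22 KO members (27.2%) had a Cd4 UMI, the helper T cell co-receptor, and no gamma-delta UMI. Of the gamma-delta members, 1 in the WT and 0 in the KO library also had a Cd4 UMI. No Cd4 and no gamma-delta UMI was found in 9 WT (29.0%) and 26 KO members (32.1%). Cells with Cd8a or Cd8b1 UMIs, the co-receptor of cytotoxic T cells, and no Cd4 UMI were rare at 2 of 31 (6.45%, 0.791 to 21.4) and 2 of 81 (2.47%, 0.300 to 8.64), and 2 and 1 of these also had a gamma-delta UMI. The intervals of the genotypes overlapped for every one of these shares.

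**Figure D1:**
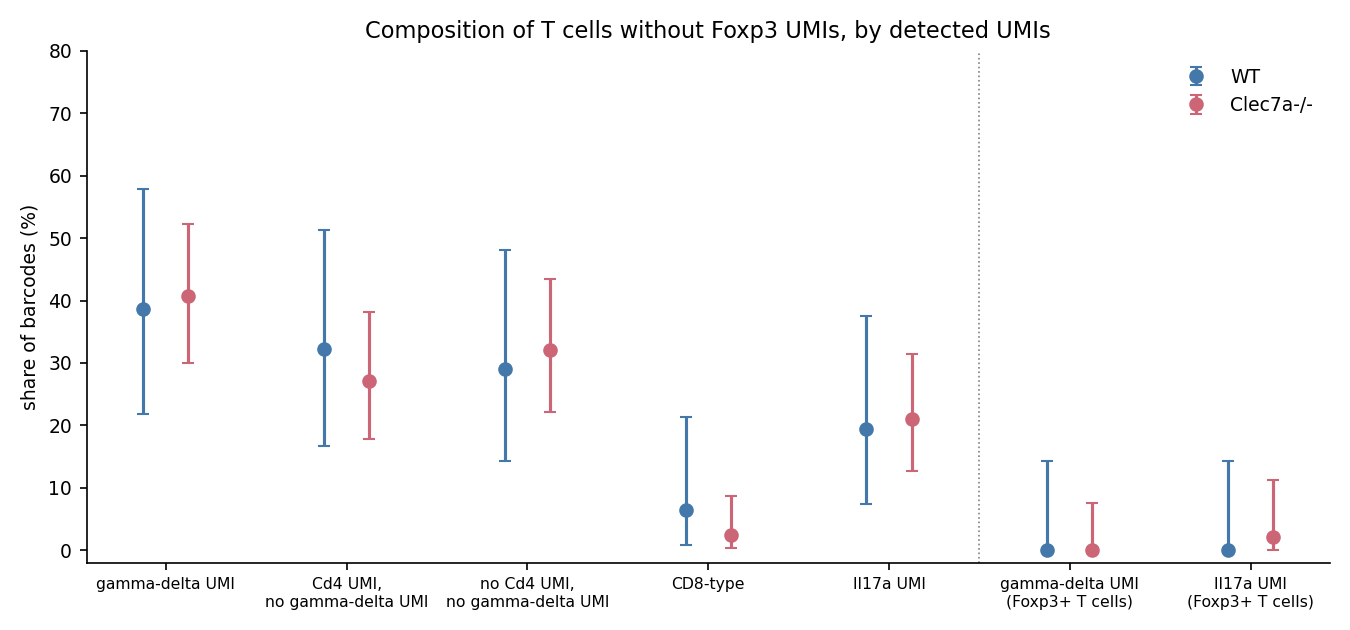
Share of barcodes (vertical axis, %) of the WT and Clec7a-/- libraries that carried the UMIs named on the horizontal axis. Points are shares and bars exact 95% Clopper-Pearson intervals. The first 5 positions are T cells without Foxp3 UMIs (31 and 81) and the 2 right of the dotted line are Foxp3+ T cells (24 and 47). Gamma-delta UMIs were in 38.7% and 40.7% of the T cells without Foxp3 UMIs and in 0% of the Foxp3+ T cells.

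The gamma-delta members carried transcripts of the delta chain and of several gamma constant genes. Trdc (chr14:54142851-54148868, plus strand) had 95 UMIs in 10 WT barcodes and 226 UMIs in 30 KO barcodes. That is 1018 CPM of the WT members (823 to 1244) and 1342 of the KO members (1173 to 1529). In Foxp3+ T cells it had 0 UMIs in both libraries, with 3 UMIs over the group as the limit of a count of 0. Its level in the members was 24.7-fold that limit in the WT and 58.4-fold in the KO library. These folds leave out the counting error of the members. Tcrg-C1 (chr13:19214103-19217024, plus strand) had 31 and 118 UMIs, Tcrg-C2 12 and 23, and Tcrg-C4 6 and 13. Reads of the gamma constant genes can be split between near-identical copies, so the order among these genes is uncertain.

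Trac and Trbc2, which encode alpha-beta receptor parts, are among the 5 genes that chose the members, so their counts are a description that the choice fixed in part. Trac (chr14:54220521-54224206, plus strand) was found in 4 of 12 WT and 11 of 33 KO gamma-delta members, and in 20 of 31 and 53 of 81 of all members. Trbc2 was found in 11 of 12 and 26 of 33 gamma-delta members. Trbc1 and Trbc2 encode nearly the same protein segment, and 24 of 512 compared coding bases differed (95.3% identical).

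Among genes outside the definition, Cd163l1 and Blk lay mostly in the same barcodes. Cd163l1, a scavenger receptor known from interleukin-17-producing gamma-delta T cells, had 26 UMIs in 5 WT members and 41 UMIs in 15 KO members, every one of them a gamma-delta member. Blk, a Src-family kinase used by these cells, had 5 of its 6 WT UMIs and 29 of its 31 KO UMIs in gamma-delta members. Neither gene had a UMI in Foxp3+ T cells. Cxcr6, a chemokine receptor of tissue-resident lymphocytes, was at 2154 CPM in the WT and 2237 in the KO gamma-delta members, against 942 and 629 in the Cd4 members and 350 and 340 in the members with neither. Pdcd1, which encodes the inhibitory receptor PD-1, had 42 of 51 KO UMIs in gamma-delta members, but 8 of 19 WT UMIs there and 10 in Cd4 members (253 and 277 CPM).

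Il17a was the most abundant cytokine of the list after Ccl5 in the WT members and the most abundant in the KO members. It had 78 UMIs in 6 WT members, or 835 CPM (660 to 1043), and 116 UMIs in 17 KO members, or 689 (569 to 826). In Foxp3+ T cells it had 0 UMIs in the WT and 1 UMI in the KO library, and in the other barcodes it was detected in 1 of 3088 and 4 of 2567. The WT level was at least 20.3-fold that of WT Foxp3+ T cells. The log2 ratio of KO over WT members was -0.28 with a 95% interval of -0.70 to 0.15.

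Il17a UMIs were spread unevenly. Gamma-delta members held 49 of the 78 WT UMIs in 5 barcodes and 71 of the 116 KO UMIs in 12 barcodes. In the WT library the other 29 came from 1 Cd4 member, and in the KO library 8 came from 2 Cd4 members and 37 from 3 members with neither UMI. Of the 5 WT gamma-delta barcodes, 1 with 8 Il17a UMIs had Tcrg-C1 UMIs but 0 Trdc UMIs, and it also had a Cd4 UMI. The highest single barcode held 36 UMIs in the WT and 26 in the KO library, and without the top barcode of each library the log2 ratio was 0.07. It was -0.83 when members were limited to 5% mitochondrial UMIs and 0.62 when members with at least 2 UMIs of other cell types were left out.

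The Il17f gene lies beside Il17a on chromosome 1 and encodes a related cytokine, but it was low here, with 1 UMI in 1 WT member and 16 UMIs in 3 KO members, of which 10 were in 1 Cd4 member and 1 was in a gamma-delta member. The 250 bases before the start of both genes are shown because the pair share a locus but not a level here, and they were searched for AGGTCA, the core letters bound by many nuclear receptors, the product of Rora among them. Sequences are those of RefSeq on GRCm38.p6, written 5′ to 3′ on the strand of the gene, with the letters AGGTCA or their reverse complement TGACCT in capitals. Il17a lies at chr1:20730655-20730904 on the plus strand and Il17f at chr1:20784271-20784520 on the minus strand. Starts are those of RefSeq, and the Il17f gene model used for the positions of genes elsewhere here spans chr1:20777146-20790617, so that the Il17f window lies inside it.
Il17a: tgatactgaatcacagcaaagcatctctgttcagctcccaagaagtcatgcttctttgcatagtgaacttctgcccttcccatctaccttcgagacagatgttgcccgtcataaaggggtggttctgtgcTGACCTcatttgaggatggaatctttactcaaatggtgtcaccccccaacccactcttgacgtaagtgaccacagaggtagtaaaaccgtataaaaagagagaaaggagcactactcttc
Il17f: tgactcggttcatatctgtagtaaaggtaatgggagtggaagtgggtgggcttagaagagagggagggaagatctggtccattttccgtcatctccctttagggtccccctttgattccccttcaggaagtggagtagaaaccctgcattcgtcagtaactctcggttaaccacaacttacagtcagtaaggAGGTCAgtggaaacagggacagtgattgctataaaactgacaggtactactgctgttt
The Il17a window holds TGACCT with its first base 120 bases before the start, and the Il17f window holds AGGTCA with its first base 58 before the start. Searched on both strands, these letters occur in 4607 of 32851 RefSeq promoter windows of this length (14.0%). The same search was run on the windows of 9 other genes: that of Il23r held 2 matches, and those of Il22, Il1r1, Cxcr6, Cd163l1, Sox13, Gzma, Gzmb and Areg held 0. A match is a description of letters and not a site of binding, and no match says only that these letters are not in the window.

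Other genes of the interleukin-17 programme were detected at low counts. Il23r, the receptor for interleukin-23, had 1 UMI in the WT members and 7 UMIs in 7 KO members. Il22, a cytokine that acts on epithelium, had 4 UMIs in 1 WT member and 7 UMIs in 1 KO member. Rora, a nuclear receptor of lymphocytes, was more abundant, at 632 CPM in the WT and 398 in the KO members, a log2 ratio of KO over WT of -0.67 (-1.19 to -0.14).

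**Figure D2:**
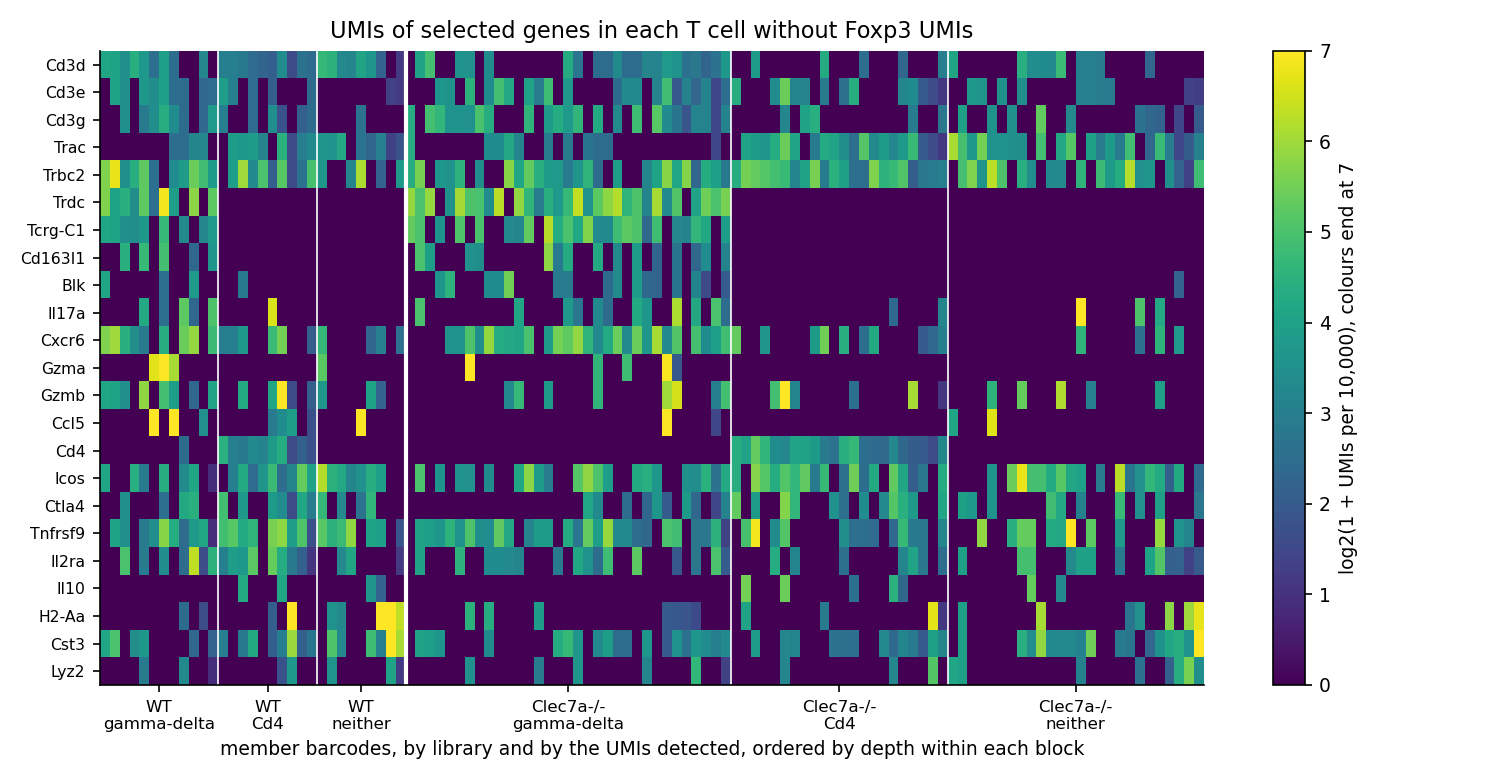
UMIs of selected genes (rows) in each T cell without Foxp3 UMIs (columns), as log2 of 1 plus UMIs per 10,000. Columns are grouped by library and by the UMIs detected (gamma-delta, Cd4, neither), and ordered by depth within each block. Trdc, Cd163l1 and most Blk and Cxcr6 signal sits in the gamma-delta blocks, and H2-Aa is highest in few barcodes outside them.

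A comparison of the gamma-delta members with the remaining members, chosen after values had been seen, covered 861 genes with at least 20 UMIs in each library. Beyond 2-fold in both libraries, 32 genes were higher in gamma-delta members (3.72% of those compared) and 49 were lower (5.69%). Trdc and Tcrg-C1 head the higher genes by definition. Of the rest, Fgl2, an immunoregulatory fibrinogen-like protein, was at 919 against 178 CPM in the WT and 1118 against 215 in the KO library. Tmem176b, a membrane protein, was at 475 against 97.1 and 977 against 113.

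On the lower side, Ccr7, the homing receptor for lymph nodes, had 0 UMIs in WT and 1 in KO gamma-delta members, against 49 and 60 in the remaining members. Il1r2, a decoy receptor for interleukin-1, had 0 and 3 against 80 and 59. H2-Aa had 2 and 10 against 326 and 191, and Procr, the protein C receptor, had 0 and 1 against 80 and 38. The few barcodes high in antigen presentation transcripts, of which 0 in the WT and 1 in the KO library were gamma-delta members, differed in how much of each gene they carried. They held 46 of the 49 Ccr7 UMIs of all WT members and 27 of the 61 of all KO members, all 80 and 36 of 39 Procr UMIs, 323 of 328 and 186 of 201 H2-Aa UMIs, and 17 of 80 and 34 of 62 Il1r2 UMIs.

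Much of the Gzma and Ccl5 signal, and in the WT library of the Gzmb signal, came from single barcodes. Gzma, a granule protease, had 113 UMIs in 4 WT members and 66 UMIs in 5 KO members, and 110 of the WT UMIs and all 66 KO UMIs were in gamma-delta members. A single WT barcode held 75 of them and a single KO barcode 39. Ccl5, a chemokine made by cytotoxic and memory T cells, had 127 UMIs in 8 WT members and 68 UMIs in 4 KO members, with 49 and 57 in the top barcode. Gzmb, another granule protease, had 170 UMIs in 16 WT members and 153 UMIs in 19 KO members, and 112 of the WT UMIs were in 1 Cd4 member, while the top KO barcode held 33. The transcription factor genes Tbx21 and Eomes and the perforin gene Prf1 had 0 UMIs in the members of both libraries, and Ifng had 0 in the WT and 1 in the KO members.

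Helper and repair transcripts were modest. Gata3, which directs type 2 helper cells, had 6 UMIs in the WT and 10 in the KO members, and Il4, Il5 and Il13 had 0. Il10, an inhibitory cytokine, had 14 UMIs in 4 WT members and 20 UMIs in 7 KO members, and none of these was a gamma-delta member. Areg, an epidermal growth factor receptor ligand made by tissue T cells, was at 214 CPM in the WT and 184 in the KO members, with 12 of the 20 WT UMIs in 1 barcode. Tnf had 3 UMIs in each library.

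The members were compared with Foxp3+ T cells of the same library over 559 genes with at least 50 UMIs in both kinds of cell together in each library. By more than 2-fold in both libraries, 6 genes were higher in the members (1.07%) and 3 were lower (0.537%). Higher were Trdc, Il17a, Gzma, Ccl5, Bcl2a1b, a survival gene of the Bcl2 family, and Phlda1. Lower were Foxp3, which the rule fixed, Penk and Hopx. Trdc, Il17a, Gzma and Ccl5 had at most 8 UMIs in the Foxp3+ T cells of a library and met the minimum of 50 UMIs through the members. Foxp3, Penk and Hopx met it through the Foxp3+ T cells. The counts of higher and lower genes are thus a description that the minimum fixed in part. The median log2 ratio over the 559 genes was -0.02 in the WT and 0.04 in the KO library, and 174 genes were higher in both libraries, 166 lower in both and 219 in opposite directions.

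Penk, the proenkephalin gene known from regulatory T cells of tissues, was at 525 CPM in the WT members and 255 in the KO members, against 2428 and 681 in Foxp3+ T cells. Hopx, a homeodomain cofactor, was at 321 and 267 against 755 and 919. Bcl2a1b was at 857 and 635 against 110 and 276, and its reads can be split with near-identical Bcl2a1 copies. It was as high in the other barcodes, at 946 and 1021.

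Transcripts associated with regulatory T cells were lower than in Foxp3+ T cells but were not near 0. The 15 such genes other than Foxp3 summed to 5216 CPM in the WT members (4763 to 5701) and 4513 in the KO members (4198 to 4846), against 8739 and 9110 in Foxp3+ T cells and 445 and 445 in the other barcodes. Of the 5 genes of the list with enough UMIs, 0 passed 2-fold in both libraries and 4 (Ctla4, Tnfrsf9, Icos and Il2ra) were lower in both. Over all 559 genes, 166 were lower in both, 174 higher in both and 219 in opposite directions. Beyond 2-fold in both, 1.07% were higher and 0.537% lower. The median log2 ratio of the 5 was -0.49 in the WT and -0.60 in the KO library. Some of the list marks any activated T cell.

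Among single genes, Icos, a costimulatory receptor, was at 1028 CPM in the WT and 1413 in the KO members, against 2277 and 2143 in Foxp3+ T cells. Tnfrsf9, the costimulatory receptor 4-1BB, was at 1500 and 1200 against 2332 and 3024. Ctla4, an inhibitory receptor, was at 557 and 576 against 782 and 1179. The intervals of Icos and Tnfrsf9 did not overlap between the cell kinds in either library, while those of Ctla4 overlapped in the WT library only. Il2ra, the high-affinity interleukin-2 receptor chain, was at 1007 and 594 against 1043 and 704, with overlapping intervals in both. Il1rl1, the interleukin-33 receptor of tissue regulatory T cells, had 7 UMIs in the WT and 4 in the KO members, against 48 and 43 UMIs in the fewer Foxp3+ T cells.

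Within the members these transcripts were not confined to Cd4 barcodes. The list summed to 6925 CPM in WT and 4485 in KO Cd4 members, to 4815 and 4403 in gamma-delta members, and to 3309 and 4697 in members with neither UMI. A Cd4 UMI was found in 17 of 24 WT (70.8%) and 28 of 47 KO (59.6%) Foxp3+ T cells. At 1000 UMIs per cell, with shallower barcodes left out, the shares were 10 of 22 (45.5%) and 16 of 41 (39.0%), against 5 of 26 (19.2%) and 12 of 62 (19.4%) of the members.

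Of the 3 residency and homing genes with enough UMIs, 0 lay beyond 2-fold from Foxp3+ T cells in both libraries. Over all 559 genes 1.07% were higher and 0.537% lower by that measure. Cxcr6 and Rgs1 were higher than in Foxp3+ T cells in both libraries and Itgb7, a gut-homing integrin chain, was lower in both. Rgs1, a regulator of chemokine signalling in tissue lymphocytes, was at 1060 CPM in the WT and 1235 in the KO members, against 645 and 429 in Foxp3+ T cells, and was also at 825 and 937 in the other barcodes. Cxcr6 was at 1189 and 1217 against 741 and 467. Thy1, of the receptor signalling list, was at 953 and 1021 against 604 and 536. The 8 proliferation genes had a sum of 1178 and 1045 CPM in the members and 1783 and 1876 in Foxp3+ T cells.

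**Figure D3:**
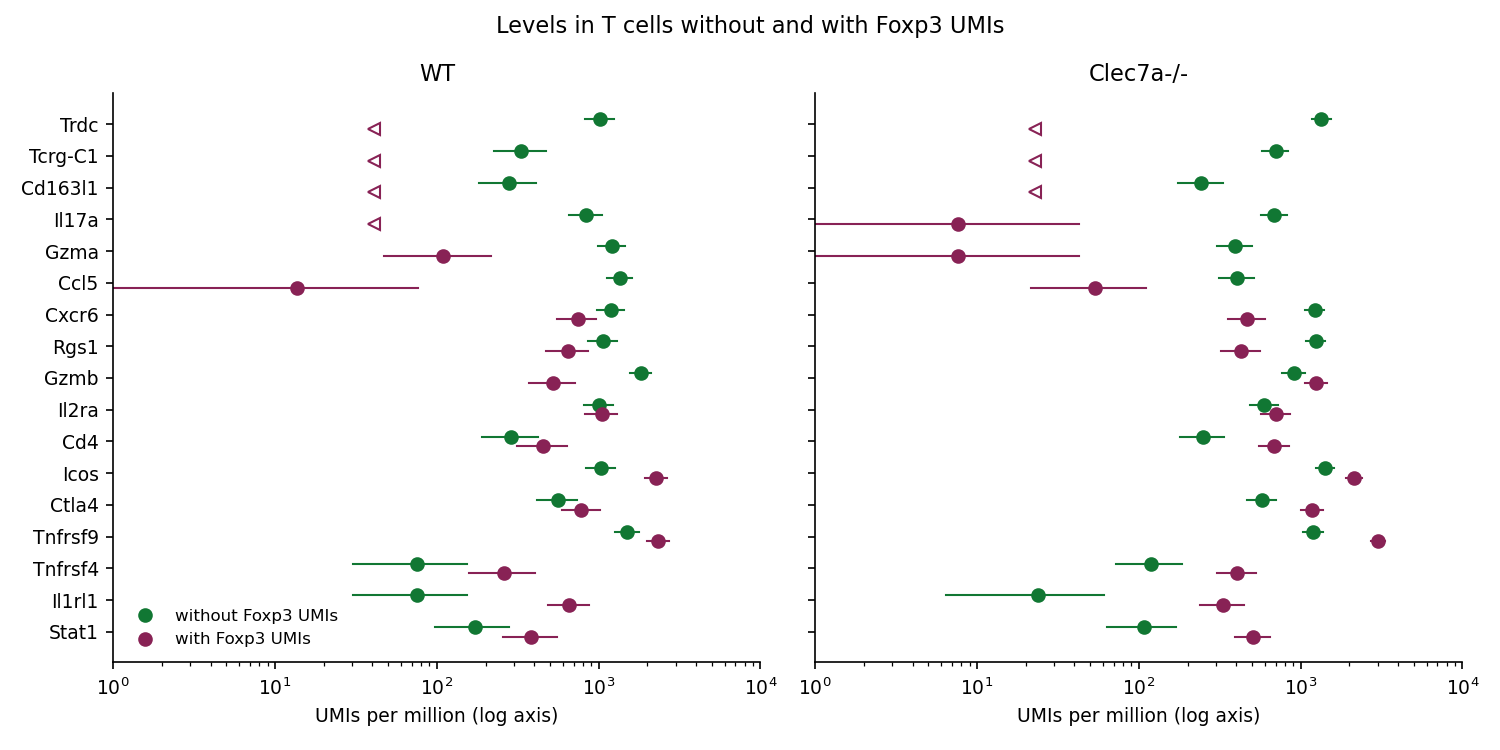
Level in CPM (horizontal log axis) of 17 genes in T cells without Foxp3 UMIs (green) and with Foxp3 UMIs (purple), for WT (left) and Clec7a-/- (right). Bars are exact 95% Poisson intervals and open triangles mark 0 UMIs, drawn at the limit that 3 UMIs set. Trdc was at 1018 and 1342 CPM in the members and at 0 UMIs in Foxp3+ T cells, while Icos and Tnfrsf9 were higher in Foxp3+ T cells in both libraries.

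Against the other barcodes, 8607 genes had enough UMIs, of which 1289 were higher in the members by more than 2-fold in both libraries (15.0%) and 722 were lower (8.39%). The 20 highest included receptor and signalling genes outside the rule, among them Icos, Thy1, Ets1, Rora and Ltb. These cells were chosen as T cells, so nothing further is read from the counts. TMM scaling moved every such ratio by -0.69 (WT) and -0.55 (KO) on the log2 scale against the other barcodes and gave 488 higher and 1376 lower genes.

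The share of the members differed between the libraries. They made up 31 of 3147 kept WT barcodes (0.985%, 0.670 to 1.40) and 81 of 2702 kept KO barcodes (3.00%, 2.39 to 3.71), a log2 ratio of 1.61 (0.99 to 2.25). When barcodes were thinned to 1000 UMIs and shallower ones left out, the whole rule was applied again. The shares were then 23 of 2894 (0.795%) and 56 of 2324 (2.41%), a log2 ratio of 1.60 (0.88 to 2.37). These counts can include Foxp3+ T cells that lost their Foxp3 UMIs by thinning, as 5 of 22 did in the WT and 16 of 41 in the KO library. Foxp3+ T cells made up 0.763% and 1.74% of kept barcodes, a log2 ratio of 1.19 (0.45 to 1.96). Members were 31 of 55 (56.4%, 42.3 to 69.7) and 81 of 128 (63.3%, 54.3 to 71.6) of all barcodes that passed the T cell rule, with overlapping intervals. The share is one among cells that passed a sort for CD11b and CD11c, and a difference of genotype, of pooling and of sorting cannot be told apart with 1 library each.

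Levels in the members were compared between genotypes over 983 genes with at least 50 UMIs in both libraries together. Ratios of genes were ranked with 0.5 UMI added to each count. In KO members 23 genes were higher by more than 2-fold (2.34%) and 26 were lower (2.64%), with a median log2 ratio of 0.02. The split was 27 and 20 with TMM scaling, 21 and 41 with the mean over cells, 25 and 10 when 3 T cell genes were needed, 14 and 10 at a 5% mitochondrial limit, and 7 and 23 with 5 UMIs added. The members had 93360 UMIs in the WT and 168385 in the KO library.

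**Figure D4:**
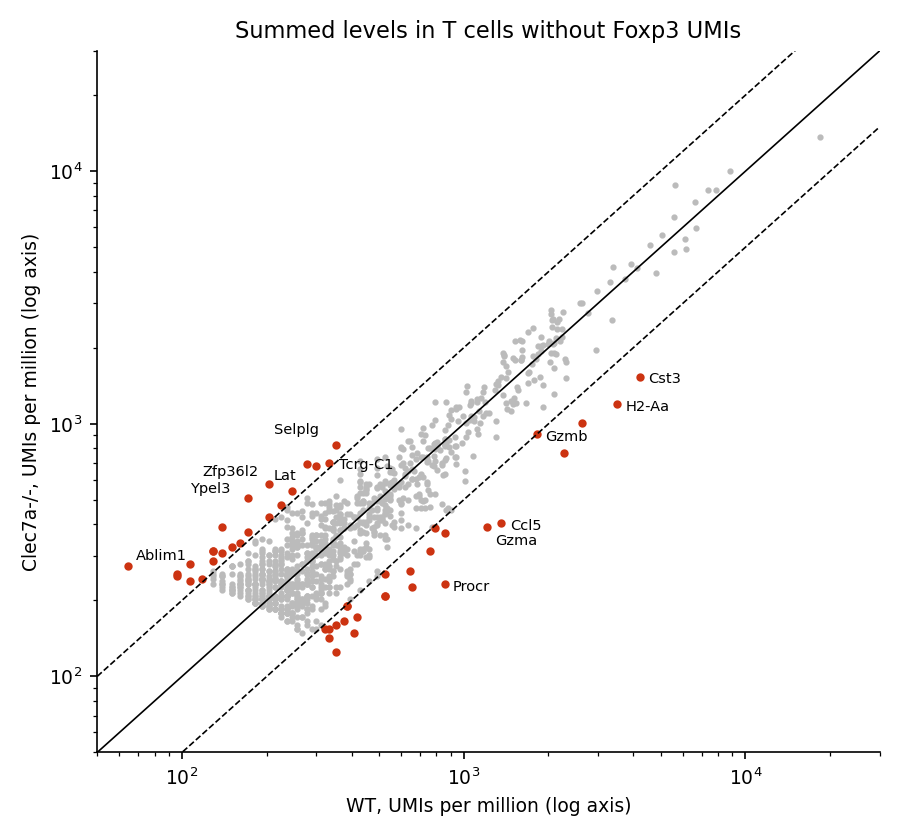
Summed level of each of 983 genes in the 31 WT (horizontal) and 81 Clec7a-/- (vertical) T cells without Foxp3 UMIs, in CPM on log axes. The solid line marks equal levels, the dashed lines 2-fold, and red points lie beyond 2-fold with 0.5 UMI added. Of these, 23 lie above and 26 below.

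Receptor signalling genes were among the higher. Lat, the adapter that links the receptor to its kinases, had 26 UMIs in 13 WT members and 117 UMIs in 52 KO members, or 278 and 695 CPM, a log2 ratio of 1.32 (0.70 to 1.99). Cd247, the CD3 zeta chain, had 13 UMIs in 9 WT members and 66 UMIs in 36 KO members, or 139 and 392 CPM, a log2 ratio of 1.49 (0.62 to 2.48). The 15 genes of receptor and CD3 signalling summed to 2892 and 3866 CPM, a log2 ratio of 0.42 (0.21 to 0.63). Of the 7 with enough UMIs, 2 were higher and 0 lower beyond 2-fold, beside 2.34% and 2.64% of all genes compared. Their median log2 ratio was 0.57, beside 0.02 over all genes. Without the barcodes high in antigen presentation transcripts the log2 ratio of the sum was 0.24 (0.03 to 0.46).

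Of the other higher genes, 6 are described here. Ablim1, an actin-binding protein, had 6 UMIs in 6 WT members and 46 UMIs in 25 KO members, a log2 ratio of 2.09 (0.86 to 3.61). Zfp36l2, an RNA-binding protein that shortens the life of transcripts, had 19 UMIs in 10 members and 97 UMIs in 44 members. Ypel3 had 16 UMIs in 9 and 86 UMIs in 44 members, and Selplg, the ligand of P-selectin, 33 UMIs in 15 and 139 UMIs in 56. Ccr2, a chemokine receptor, had 10 UMIs in 6 and 47 UMIs in 23. Ltb, lymphotoxin beta, had 12 UMIs in 5 and 53 UMIs in 27 members, with 8 of the WT UMIs in 1 barcode. No barcode held more than 10 UMIs of any of these 6 genes.

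The lower genes included the MHC class II genes and cytotoxic genes, and single barcodes carried much of several of them. H2-Aa was at 3513 CPM in the WT and 1194 in the KO members, a log2 ratio of -1.56 (-1.82 to -1.30). Without the 4 WT and 6 KO members high in antigen presentation transcripts 5 and 15 H2-Aa UMIs were left, a log2 ratio of 0.47. Cst3, cystatin C, was at 4220 and 1532 with 270 of 394 WT UMIs and 130 of 258 KO UMIs in 1 barcode each, and without the members high in antigen presentation transcripts its log2 ratio was 0.35. Procr had 80 UMIs in 2 WT members and 39 UMIs in 6 KO members, with 68 and 33 in the top barcode, and a log2 ratio of -1.89 (-2.48 to -1.32). Without those high members 0 WT and 3 KO Procr UMIs were left, so no ratio is given. The dendritic cell list summed to 11365 and 4163 CPM, a log2 ratio of -1.45 (-1.59 to -1.31), which was 0.34 (-0.11 to 0.81) without them.

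Among cytotoxic genes Gzma was at 1210 CPM in the WT and 392 in the KO members, a log2 ratio of -1.63 (-2.09 to -1.18). Ccl5 was at 1360 and 404, a log2 ratio of -1.75 (-2.20 to -1.32). Gzmb was at 1821 and 909, a log2 ratio of -1.002 (-1.33 to -0.68), which was 0.16 without the top barcode of each library. The 11 cytotoxic genes summed to 3492 and 1592 CPM, a log2 ratio of -1.13 (-1.37 to -0.90), and both genes with enough UMIs, Gzma and Gzmb, were lower beyond 2-fold (2.64% of all genes compared were). The counting intervals do not cover the weight of single cells: Gzma rested on 4 WT and 5 KO members.

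Genes outside both groups were also lower. Ndrg1, a stress- and hypoxia-responsive gene, was at 653 CPM in the WT and 226 in the KO members, with 61 UMIs in 11 and 38 UMIs in 14 barcodes and a log2 ratio of -1.53 (-2.16 to -0.93). Ube2e3, a ubiquitin-conjugating enzyme, had 33 UMIs in 19 WT members and 21 UMIs in 19 KO members, with at most 5 in a barcode and a log2 ratio of -1.50 (-2.37 to -0.67). Il1r2 was at 857 and 368 with a log2 ratio of -1.22 (-1.72 to -0.72). Without the members high in antigen presentation transcripts these log2 ratios were -1.54 for Ndrg1, -1.77 for Ube2e3 and -2.18 for Il1r2, and the Il1r2 ratio was -0.52 at the 5% mitochondrial limit.

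**Figure D5:**
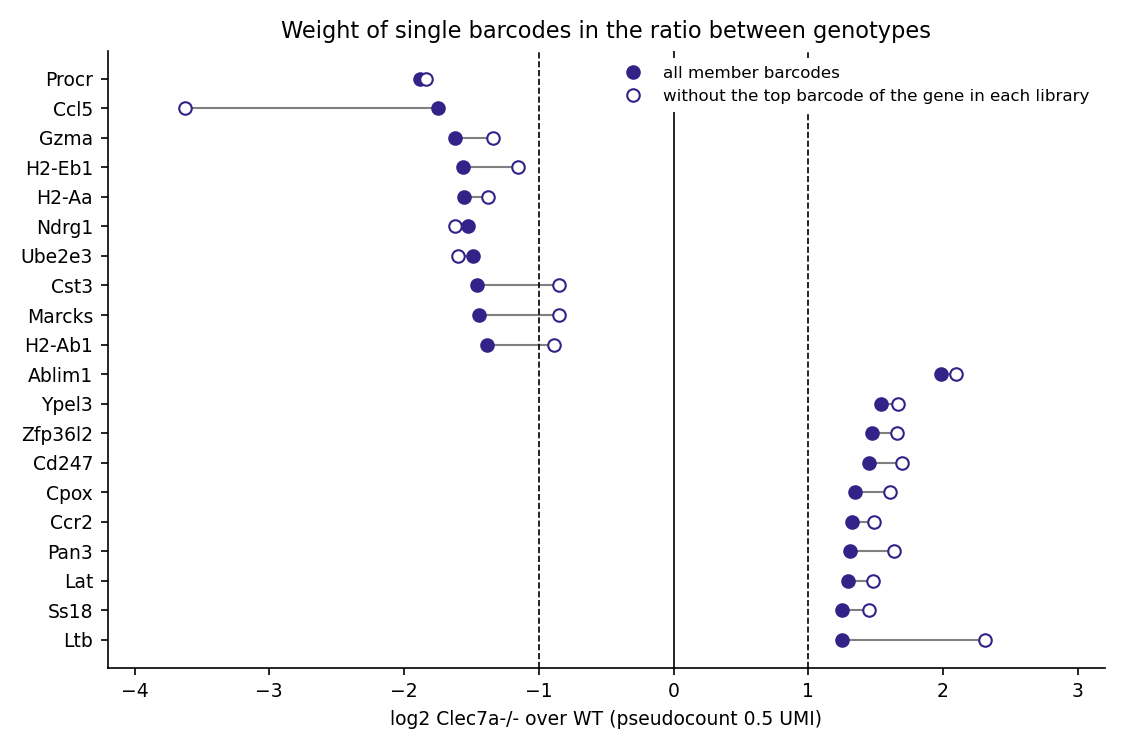
Log2 ratio of Clec7a-/- over WT members, with 0.5 UMI added, for the 10 genes lowest and the 10 highest in KO members. Filled points use all members and open points leave out the barcode with most UMIs of the gene in each library. The 10 higher genes stayed above 1, while Cst3, Marcks and H2-Ab1 moved inside 2-fold and Ccl5 moved from -1.75 to -3.63.

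Gamma-delta transcripts were higher relative to all UMIs in the KO members, by an amount that varied with the barcodes used. The 7 genes of the list summed to 1617 CPM in the WT (1370 to 1897) and 2471 in the KO members (2239 to 2720), a log2 ratio of 0.61 (0.34 to 0.89). Trdc had a log2 ratio of 0.40 (0.05 to 0.76) and Tcrg-C1 of 1.08 (0.50 to 1.70). Of the 2 with enough UMIs 1 was higher and 0 lower beyond 2-fold, beside 2.34% and 2.64% of all genes compared. Without the top barcode of the list in each library the sum had a log2 ratio of 1.00 (0.66 to 1.34), and without the members high in antigen presentation transcripts it was 0.43 (0.15 to 0.70). At a 5% mitochondrial limit the log2 ratio of Trdc was 0.10 (-0.28 to 0.49). The share of gamma-delta members had a log2 ratio of 0.07 (-0.92 to 1.16).

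Several lists gave ratios near 1 over all members. The checkpoint and exhaustion list summed to 3717 CPM in the WT and 3730 in the KO members, a log2 ratio of 0.00 (-0.19 to 0.20). Of its 4 genes with enough UMIs 0 lay beyond 2-fold, beside 2.34% higher and 2.64% lower of all genes compared. Residency and homing genes summed to 3128 and 3349 (log2 ratio 0.10, -0.11 to 0.31) and helper regulators to 1842 and 1675 (-0.14, -0.42 to 0.14). Proliferation genes (-0.17, -0.52 to 0.18), heat shock genes (-0.01, -0.27 to 0.25), interferon-stimulated genes (-0.07, -0.63 to 0.51) and genes of naive or central memory cells (-0.05, -0.51 to 0.41) had log2 ratios whose intervals held 0. Without the members high in antigen presentation transcripts 2 of these lists moved off 0. Naive or central memory genes had a log2 ratio of 1.28 (0.49 to 2.15), with 16 WT and 79 KO UMIs, and proliferation genes of -0.42 (-0.78 to -0.04). Without the top barcode of the list in each library both intervals held 0. The log2 ratio was then 0.21 (-0.32 to 0.76) for naive or central memory genes and 0.21 (-0.25 to 0.70) for proliferation genes. Regulatory T cell genes other than Foxp3 had a log2 ratio of -0.21 (-0.37 to -0.04) and effector cytokines of -0.73 (-0.96 to -0.50), and Ccl5 and Il17a led the latter list. Without the members high in antigen presentation transcripts the log2 ratios were -0.34 (-0.51 to -0.17) and -0.88 (-1.11 to -0.64). The regulatory T cell genes had a log2 ratio of -0.14 (-0.31 to 0.04) without the top barcode of the list in each library. That interval held 0. Effector cytokines then had a log2 ratio of -0.75, with an interval below 0. Of the 4 effector cytokine genes with enough UMIs, only Ccl5 was lower beyond 2-fold and 0 were higher, beside 2.64% and 2.34% of all genes compared. The median log2 ratio of the 4 was -0.26. The Ccl5 UMIs lay in 8 WT and 4 KO members.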

How the data were processed

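Single-cell 3′ RNA-seq was measured in 1 WT and 1 KO library of sorted polyp cells. The deposited values are raw UMI counts (whole numbers) for each gene in each barcode, which the authors did not normalize. The submitters' processing notes name Cell Ranger 2.1.1 and mm10, and 32158 of 32285 gene identifiers matched GENCODE M21. Groups came from the sample titles. Counts were read as deposited, and members were selected with 200 to 4000 genes and at most 10% mitochondrial UMIs, where the study's methods use 5%, tried as an alternative. UMIs were summed per library and cell kind and scaled to 1000000 UMIs (CPM). Genes with at least 50 UMIs over the cells compared (in each library where cell kinds were compared) entered comparisons, with 0.5 UMI added for ranking and 2-fold as the limit. Ratios printed with an interval carry no pseudocount. Intervals were exact (Clopper-Pearson for shares, Poisson for levels, conditional binomial for ratios) at 95%, and 3 counts set the limit of a count of 0. Members and gene lists were chosen with earlier results of these data known.

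Named are genes of 24 fixed lists, the 20 most abundant genes and the 10 with the largest KO over WT ratio in each direction. The 10 most different from Foxp3+ T cells in each direction and the 20 highest against other barcodes are named too. Outside these rules, genes from the comparison of gamma-delta members with the remaining members are named, as is Selplg. Alternatives varied the mitochondrial, gene and marker limits, depth, doublets, scaling (edgeR 4.0.16 TMM), the weight of cells, the gene minimum and the pseudocount. Python 3.11.15, numpy 2.4.6, scipy 1.17.1, pandas 2.3.3, scanpy 1.11.5, matplotlib 3.10.9 and R 4.3.3 were used. Scripts were tested on simulated data. Some listed genes are not reported here.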

Additional observations from a re-analysis of the deposited data

Results flagged for a closer look

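Gzmb differed in direction between the genotypes when T cells without Foxp3 UMIs were compared with Foxp3+ T cells. The log2 ratio was 1.80 in the WT library, with 1821 against 521 CPM, and -0.45 in the KO library, with 909 against 1240. A single WT barcode held 112 of the 170 WT UMIs. The difference between the genotypes was not tested, since each has 1 library.

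Il1r2 also differed in direction, with a log2 ratio of 0.84 in the WT library (857 against 480 CPM) and -0.92 in the KO library (368 against 697). The highest barcode held 19 of 80 WT UMIs and 14 of 62 KO UMIs. This difference was not tested either.

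Barcodes above 10% mitochondrial UMIs lay outside the comparisons, and 2 of them in the WT library and 6 in the KO library met the rest of the rule for T cells without Foxp3 UMIs.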

How the results depend on the processing

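The ratio of the members' share between the libraries kept its direction under every alternative run on barcodes (log2 1.42 to 1.69), and the gamma-delta share lay between 30.8% and 44.4% in the WT and between 37.0% and 45.1% in the KO library. The KO share of members was 1.96% when 3 T cell genes were needed. After thinning to 1000 UMIs the CD8-type share in the WT library was 0% (0 of 26). This allows up to 11.5% with 3 counts as the limit and 13.2% by the exact interval. Against 23 higher and 26 lower genes in KO members, the 5% mitochondrial limit gave 14 and 10, leaving out the members high in antigen presentation transcripts gave 14 and 15, a minimum of 20 UMIs gave 156 and 138, the need for 3 T cell genes gave 25 and 10, the mean over cells gave 41 lower, and 5 UMIs added gave 7 higher. Against 6 higher and 3 lower genes beside Foxp3+ T cells, a minimum of 20 UMIs gave 19 and 23, and both the stricter neutrophil and C1q limits and the removal of members high in antigen presentation transcripts gave 5 lower. Beside the other barcodes TMM scaling gave 488 higher and 1376 lower genes, and 5 UMIs added gave 4706 and 199. The direction of KO over WT turned for 6 genes that lay beyond 2-fold. It also turned for Cd4, Ctla4 and Il17a, whose log2 ratios were nearer 0, with ranges over the alternatives of -0.42 to 0.05, -0.22 to 0.24 and -0.83 to 0.62. Without members high in antigen presentation transcripts the log2 ratio was 0.35 for Cst3, 0.47 for H2-Aa, 0.019 for H2-Ab1, 0.32 for Marcks and 1.78 for Procr, the last from 0 WT and 3 KO UMIs and so set by the 0.5 UMI added. At the 5% mitochondrial limit it was 0.26 for Cst3 and 0.89 for Procr, and with 3 T cell genes needed 0.35 for Cst3 and 0.88 for Procr. Gzmb was at 0.16 without its top barcode in each library. The causes were not tested. The alternatives that leave out members high in antigen presentation transcripts, leave out a top barcode, thin the barcodes for the share of members and of gamma-delta members, or ask for 2 gamma-delta UMIs were chosen after seeing the data. With 31 WT members, whose UMIs total 93360, shares and genes under 50 UMIs are poorly set, and no value covers the spread between mice. No paired analysis was possible because each genotype has 1 library.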

Other observations

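Odc1, which encodes ornithine decarboxylase, the first enzyme of polyamine synthesis, was among the 20 most abundant genes of the T cells without Foxp3 UMIs. It was at 6695 CPM in 28 of 31 WT members and at 5951 CPM in 73 of 81 KO members, a log2 ratio of KO over WT of -0.17 (95% interval -0.32 to -0.02). In Foxp3+ T cells Odc1 was at 9672 and 8138 CPM, and in the other barcodes at 1188 and 1563 CPM.

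Tff1, a secreted trefoil peptide best known from epithelium, had 24 UMIs in 9 WT members and 27 UMIs in 14 KO members. It was at 257 and 160 CPM in the members and at 466 and 788 CPM in Foxp3+ T cells, while the other barcodes had 0.215 and 1.59 CPM. The epithelial marker list had 1 UMI in the WT and 2 UMIs in the KO members.

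Tnfsf11, the gene of the cytokine RANKL, had 21 UMIs in the WT and 35 in the KO members. Ccr9, a receptor for homing to the gut, had 13 UMIs in 3 WT members and 1 UMI in 1 KO member. Cd28, a costimulatory receptor, had 12 UMIs in 6 WT members and 44 UMIs in 18 KO members.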
